A study of Schizosaccharomyces japonicus with 6 samples.

Results

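The genes described here encode the proteins that place and read methylation of histone H3 Lys 9 (H3K9) in the fission yeast *Schizosaccharomyces japonicus*, and the deacetylase and remodeller that act with them. They were chosen by name: *clr4* (*SJAG_04574*), *rik1* (*SJAG_03680*) and *raf2* (*SJAG_02119*) of the H3K9 methyltransferase complex, *swi6* (*SJAG_01601*), *chp1* (*SJAG_03916*) and *chp2* (*SJAG_01579*) for the chromodomain proteins, and *clr1* (*SJAG_00934*), *clr3* (*SJAG_03844*) and *mit1* (*SJAG_03982*) of the deacetylase and remodelling complex SHREC. All 9 were among the 5272 genes of the deposited table, and all 9 had a mean of at least 1 FPKM, the filter of the test. Strand-specific RNA-seq was performed on 3 strains, with 2 libraries each. The wild type (WT) was strain NIG5572. In *pab2*Δ the gene of the nuclear poly(A)-binding protein was removed by gene replacement. The *clr4-1* strain carries a temperature-sensitive *clr4* allele that was obtained by error-prone PCR of the gene together with a *natMX6* drug resistance marker, and that changes a residue of the SET domain. A complete loss of *clr4* could not serve as a model because the gene is essential in *S. japonicus*. All cells were grown vegetatively to mid-log phase in YES, a rich yeast extract medium, at 30°C. Each mutant was 1 strain, so its marker and its background cannot be told apart from the mutation.

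Constitutive heterochromatin keeps centromeres and telomeres silent and supports chromosome segregation. Work in the related yeast *S. pombe* gives the order of events: Clr4, inside a cullin ubiquitin ligase complex called CLRC, methylates H3K9, chromodomain proteins bind the methyl mark, and the bound proteins bring in histone deacetylases that limit access of RNA polymerase II. The mark is also bound by Clr4 itself, through which methylation spreads along the chromosome.

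Levels were given as FPKM, the fragments of a transcript per kilobase of its length scaled to library size, so that levels of genes of unequal length can be set side by side. The sums of FPKM lay between 910209 and 1080820 per library, and the number of reads behind them is unknown. Replicates had Spearman correlations across genes of 0.994 to 0.996. *pab2* read 145 and 142 FPKM in WT and 161 and 174 FPKM in *clr4-1*, and both *pab2*Δ libraries had it listed at 0. Of 7 genes listed as markers of cells that enter mating or meiosis, 6 were found by name. Their summed level was 36.5 and 36.1 FPKM in WT, 87.4 and 86.1 FPKM in *pab2*Δ and 19.0 and 18.7 FPKM in *clr4-1*, with none of the 6 at 0 in any library. The 6 did not move alike: in *pab2*Δ *meu10* was at 39.0 and 38.2 FPKM, over 1.03 and 0.977 FPKM in WT, whereas *mei2* was lower than in WT in both mutants, and in *clr4-1* *ste11* was lower as well while *meu10* and *spo5* were above their WT values. The paper describes *mei4*, *rec8* and *spo5* as putative meiotic transcripts that Pab2 and Red1 hold down in vegetative cells. Their levels in *pab2*Δ are therefore no measure of cells that enter mating or meiosis. These markers were named after their values were seen, and the part of such cells in the differences below was not tested.

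In WT the 9 genes spanned a wide range. *swi6*, which encodes an HP1 protein, was by far the most abundant, at 182 and 181 FPKM, above 90.6% of the genes in the table. *chp2*, the other HP1 gene, followed at 39.9 and 42.8 FPKM, so that *swi6* was 4.40 times as abundant by mean FPKM. Then came *raf2*, *clr3*, *rik1*, *mit1*, *chp1*, *clr1* and *clr4*, all between 9.34 and 18.6 FPKM. *clr4*, which encodes the enzyme that places the mark, was the lowest of the 9, above 22.5% of all genes. Neighbours in this order differed by more than their replicate spread, except for *mit1* and *chp1*, whose libraries overlapped. The order was nearly the same in *pab2*Δ, where only *clr1* and *chp1* changed places. In *clr4-1*, *clr4* moved from the ninth to the third place and overlapped *raf2*. *rik1* overlapped *chp1* there, and *chp1* overlapped *mit1*.

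**Figure D1:**
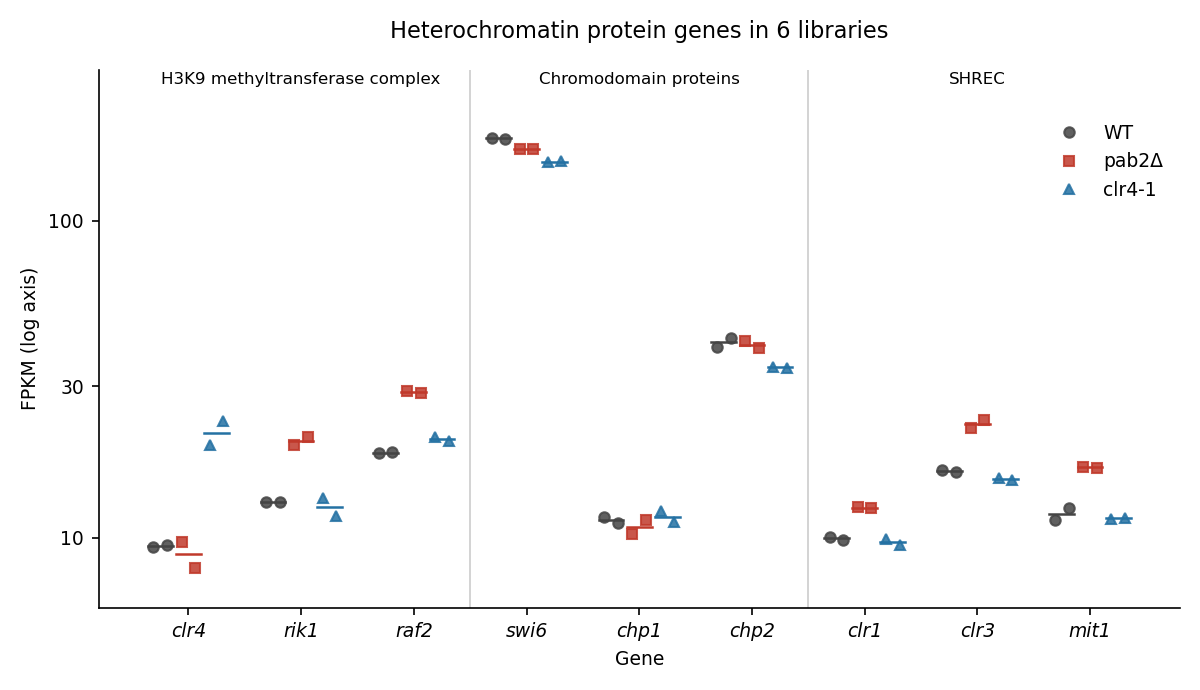
FPKM (log axis) of the 9 genes in each library, grouped by complex: circles are WT, squares *pab2*Δ and triangles *clr4-1*, and each horizontal bar is the mean of 2 libraries. *swi6* lies above all other genes in all 6 libraries, *clr4* is raised only in the *clr4-1* libraries, and *rik1*, *raf2*, *clr1*, *clr3* and *mit1* are raised only in the *pab2*Δ libraries beyond the spread between replicates, apart from a small rise of *raf2* in *clr4-1*.

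The first comparison asked how the genes for the heterochromatin machinery were expressed without Pab2. In *pab2*Δ the 9 genes did not move together. *rik1* and *raf2* and the 3 SHREC genes rose, by 1.25 to 1.56 times in mean FPKM. In the values as deposited, *clr4* and the chromodomain protein genes did not rise. There *swi6* was slightly lower, and *clr4*, *chp1* and *chp2* did not pass the test. By limma on log2(FPKM + 1), called at an adjusted p under 0.05, 5 of the 9 were higher and 1 was lower, against 53.8% of all tested genes higher and 19.9% lower (73.7% in either direction). The share of the 9 that rose is therefore near that of all genes. Their median log2 fold change was 0.30, beside 0.19 over all 4899 tested genes. None of the 9 genes passed the fold limits of the study, applied here to all 4 ratios of a *pab2*Δ to a WT library. The limits were above 2 (7.6% of genes) or below 0.5 (2.02%), which the paper asked of both its replicates. The median of all genes moved by -0.20 when libraries were rescaled with TMM factors, which set the bulk of genes equal, so changes are also given relative to the median of all genes. On that basis 5 of the 9 lay above and 4 below. In these bulk samples more RNA per cell cannot be told apart from more cells that express a gene.

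Among the methyltransferase complex genes, *rik1* and *raf2* moved together in *pab2*Δ and *clr4* did not follow. *rik1*, whose product is a DDB1-like subunit of CLRC in *S. pombe*, was at 13.0 and 13.0 FPKM in WT, 19.7 and 20.7 FPKM in *pab2*Δ and 13.4 and 11.7 FPKM in *clr4-1*. Both *pab2*Δ libraries were above all others, and the *clr4-1* libraries fell on either side of WT. The log2 fold change in *pab2*Δ was 0.60 (SE 0.070, adjusted p = 0.00054), which is 0.41 above the median of all genes. *raf2*, which encodes another subunit required for the ligase in *S. pombe*, was at 18.5 and 18.6 FPKM in WT, 29.1 and 28.6 FPKM in *pab2*Δ and 20.7 and 20.1 FPKM in *clr4-1*. Again the *pab2*Δ libraries stood clear of the rest, with a log2 fold change of 0.61 (SE 0.038, adjusted p = 4.41e-05), 0.42 above the median. The ratio of *raf2* to *rik1*, which no scaling of a library can alter, was 1.42 and 1.43 in WT and 1.48 and 1.38 in *pab2*Δ, so these overlapped.

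The *clr4* transcript measured 9.34 and 9.48 FPKM in WT and 9.70 and 7.99 FPKM in *pab2*Δ. The *pab2*Δ libraries lay on either side of WT and differed from each other more than those of any other of the 9 genes. The log2 fold change was -0.086 (95% interval -0.36 to 0.19, adjusted p = 0.511), and it became 0.10 when each library was scaled to the same sum of FPKM. Set against the other complex genes, *clr4* was lower in both *pab2*Δ libraries: its ratio to *rik1* was 0.719 and 0.731 in WT and 0.493 and 0.386 in *pab2*Δ, and its ratio to *raf2* was 0.506 and 0.510 in WT and 0.333 and 0.280 in *pab2*Δ. Of the summed FPKM of these 3 genes, *clr4* thus made up 22.9% and 23.1% in WT and 16.6% and 14.0% in *pab2*Δ. These ratios are descriptions of 2 libraries a strain and were not tested.

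In the values as deposited, the chromodomain protein genes stayed near their WT levels in *pab2*Δ, while 53.8% of all tested genes were called higher. *swi6* was at 182 and 181 FPKM in WT, 169 and 168 FPKM in *pab2*Δ and 153 and 154 FPKM in *clr4-1*. The strains did not overlap and the replicates were nearly equal. The log2 fold change in *pab2*Δ was small, -0.11 (SE 0.023, adjusted p = 0.00685), 0.30 below the median of all genes. With TMM factors it was -0.32 (adjusted p = 9.52e-05), but scaling each library to the same sum turned it to 0.098 (adjusted p = 0.0201). *chp1*, which encodes the chromodomain subunit of the RNA-induced silencing complex in *S. pombe*, was at 11.6 and 11.1 FPKM in WT, 10.3 and 11.3 FPKM in *pab2*Δ and 12.1 and 11.2 FPKM in *clr4-1*. All 3 strains overlapped. *chp2*, which encodes the HP1 protein linked to SHREC in *S. pombe*, was at 39.9 and 42.8 FPKM in WT and 41.7 and 39.6 FPKM in *pab2*Δ, again with overlap. The log2 fold changes in *pab2*Δ were -0.070 for *chp1* (95% interval -0.24 to 0.10, adjusted p = 0.394) and -0.023 for *chp2* (-0.14 to 0.096, adjusted p = 0.679). With TMM factors both were called lower, *chp1* at -0.27 (adjusted p = 0.0158) and *chp2* at -0.23 (adjusted p = 0.00703). Scaling each library to the same sum turned both positive, *chp1* at 0.12 (adjusted p = 0.149) and *chp2* at 0.18 (adjusted p = 0.0182). *chp2* was then called higher. The ratio of *swi6* to *chp2* was 4.57 and 4.24 in WT and 4.04 and 4.26 in *pab2*Δ and did not separate the strains.

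All 3 SHREC genes rose in *pab2*Δ. *clr3*, which encodes the histone deacetylase of the complex, was at 16.3 and 16.1 FPKM in WT, 22.2 and 23.4 FPKM in *pab2*Δ and 15.5 and 15.2 FPKM in *clr4-1*. *mit1*, which encodes the Mi-2-like remodeller, was at 11.3 and 12.4 FPKM in WT, 16.7 and 16.5 FPKM in *pab2*Δ and 11.5 and 11.5 FPKM in *clr4-1*. For both genes the *pab2*Δ libraries were above all 4 others. The log2 fold changes in *pab2*Δ were 0.47 for *clr3* (SE 0.044, adjusted p = 0.000237) and 0.46 for *mit1* (SE 0.055, adjusted p = 0.000631), 0.27 and 0.26 above the median of all genes. *clr1*, which encodes a zinc finger subunit, was at 10.1 and 9.83 FPKM in WT, 12.5 and 12.4 FPKM in *pab2*Δ and 9.89 and 9.45 FPKM in *clr4-1*. Its libraries were also highest in *pab2*Δ, with a log2 fold change of 0.30 (SE 0.051, adjusted p = 0.00283), but with TMM factors the difference was 0.10 and no longer passed (adjusted p = 0.127). *clr3* and *mit1* kept their ratio to each other, 1.44 and 1.30 in WT and 1.33 and 1.42 in *pab2*Δ.

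Set against each other within a library, the chromodomain protein genes were lower relative to the SHREC genes in *pab2*Δ. The summed FPKM of *swi6*, *chp1* and *chp2* was 6.21 and 6.14 times that of *clr1*, *clr3* and *mit1* in WT, 4.29 and 4.19 times in *pab2*Δ and 5.42 and 5.53 times in *clr4-1*. The 3 strains did not overlap in this ratio. *chp2* to *mit1*, whose proteins belong together in *S. pombe*, went from 3.52 and 3.45 in WT to 2.49 and 2.39 in *pab2*Δ. *chp1* to *rik1* went from 0.897 and 0.857 to 0.523 and 0.547. *swi6* to *raf2* went from 9.86 and 9.76 to 5.79 and 5.90. *swi6* made up 77.9% and 77.1% of the chromodomain sum in WT. The tested genes in the highest of 4 bins by WT level, which held *swi6*, had a median log2 fold change of -0.074 in *pab2*Δ. In the lowest bin, which held *clr1* and *mit1*, the median was 0.43. The ratios were not corrected for this relation to level, and its part in them was not tested.

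**Figure D2:**
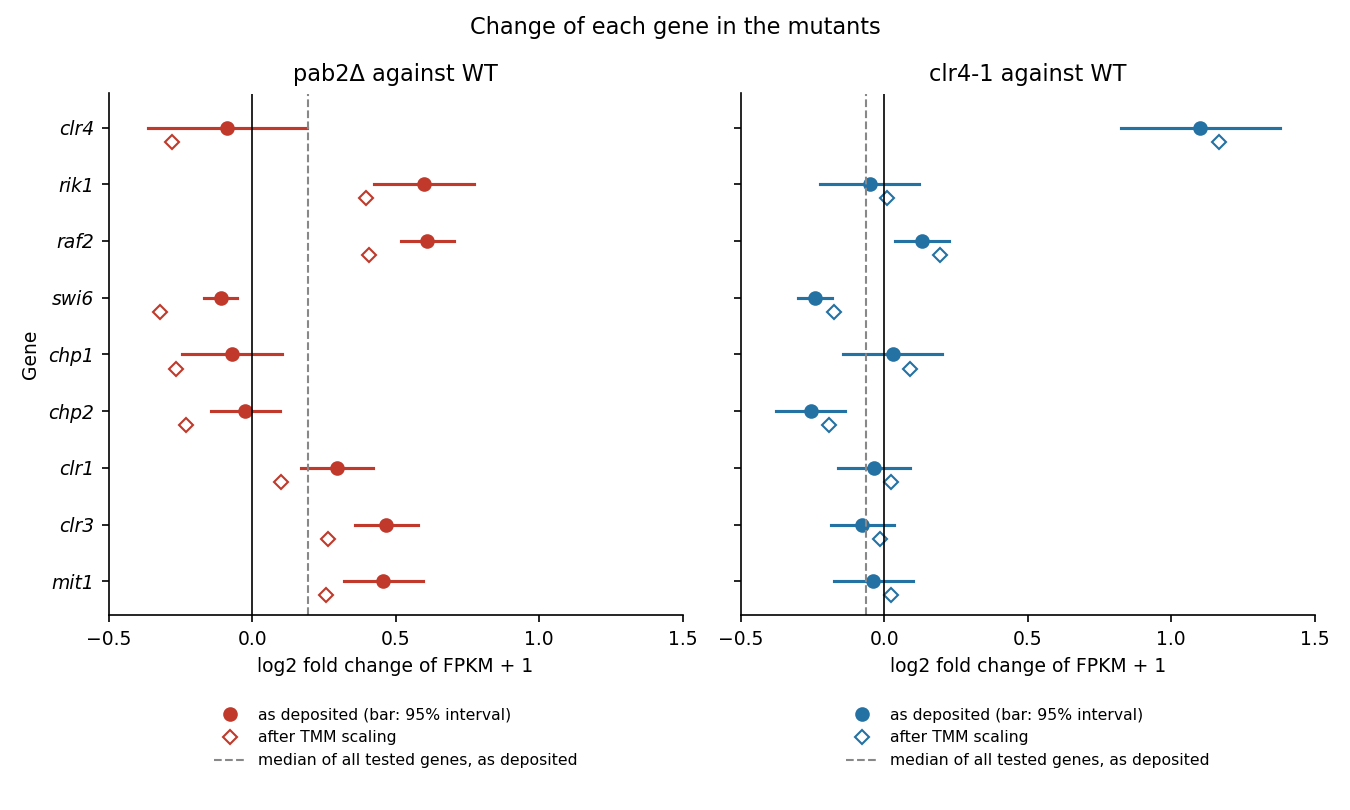
log2 fold change of FPKM + 1 for each gene in *pab2*Δ (left) and *clr4-1* (right) against WT: filled circles are the values as deposited with their 95% intervals from limma, open diamonds the values after TMM scaling, and the dashed line the median of all tested genes as deposited. In *pab2*Δ *rik1*, *raf2*, *clr1*, *clr3* and *mit1* lie to the right of the dashed line at 0.19 and the other 4 genes to its left. In *clr4-1* *clr4* stands alone at 1.10.

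The second comparison asked how these genes responded to the mutation in *clr4* itself. Here *clr4* rose, *swi6* and *chp2* fell slightly, and the SHREC genes, *rik1* and *chp1* did not pass the test. By limma 2 of the 9 were higher (15.1% of all tested genes) and 2 were lower (27.5%), together 4 of 9 beside 42.6%. Their median log2 fold change was -0.039, beside -0.064 over all genes. *clr4* was the only one of the 9 in which all 4 ratios to WT were above 2, as in 0.796% of genes, and none of the 9 had all 4 below 0.5 (1.18%).

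*clr4* was at 19.6 and 23.3 FPKM in *clr4-1*, above all WT and *pab2*Δ libraries. The mean was 2.28 times that of WT, with single ratios between libraries from 2.06 to 2.49. The log2 fold change of 1.10 (SE 0.11, adjusted p = 0.00127) was larger than that of 98.9% of tested genes. It passed the test under all 15 alternative settings, with values from 0.87 to 1.22. *clr4* came to 36.5% and 42.2% of the summed FPKM of the 3 methyltransferase complex genes in *clr4-1*. Its ratio to *rik1* was 1.47 and 1.99, so that it stood above *rik1* there and below it in WT. Whether the marker beside the allele took part in this rise was not tested. The FPKM counts transcript of the mutant allele, so it says nothing of the amount or activity of the protein.

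*swi6* was called lower in *clr4-1*, by a log2 fold change of -0.24 (SE 0.023, adjusted p = 0.00106), or 0.845 times WT. *chp2* measured 34.6 and 34.3 FPKM in *clr4-1*, under both WT values. Its log2 fold change of -0.26 (SE 0.048, adjusted p = 0.00955) lost its call without WT replicate 2 (adjusted p = 0.0515) or without *clr4-1* replicate 2 (adjusted p = 0.0554). The ratio of *swi6* to *chp2* was 4.42 and 4.51, within the range of WT. *raf2* rose by a log2 fold change of 0.13 (SE 0.038, adjusted p = 0.0361), which passed in only 6 of 15 alternatives and in none of those that left out a library. Of the genes that did not pass, *clr3* was below WT in both libraries at -0.076 (95% interval -0.19 to 0.034, adjusted p = 0.217). *rik1* was at -0.051 (-0.22 to 0.12), *mit1* at -0.039 (-0.18 to 0.099), *clr1* at -0.036 (-0.16 to 0.090) and *chp1* at 0.030 (-0.14 to 0.20), all with overlapping libraries, and with TMM factors the first 3 of these turned slightly positive.

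The direct comparison of the mutants gave the difference between them, which the calls against shared WT libraries cannot. Relative to *clr4-1*, *pab2*Δ had less *clr4* transcript and more of the *rik1*, *raf2* and SHREC transcripts. By limma 7 of the 9 were higher in *pab2*Δ (61.1% of tested genes) and 1 was lower (17.4%, and 78.4% in either direction), with a median of 0.33 beside 0.27 for all genes. *clr4* differed by a log2 fold change of -1.19 (SE 0.11, adjusted p = 0.000201). The differences were 0.65 for *rik1* (adjusted p = 0.000343), 0.54 for *clr3* (adjusted p = 0.000115), 0.50 for *mit1* (adjusted p = 0.000408) and 0.48 for *raf2* (adjusted p = 9.96e-05). These 5 kept their direction and their call under all 14 alternatives. *clr1* differed by 0.33 (adjusted p = 0.00154), which with TMM factors was 0.075 (adjusted p = 0.226). *swi6* was 0.13 higher in *pab2*Δ (adjusted p = 0.00277), but with TMM factors it was lower, at -0.15 (adjusted p = 0.00244). *chp2* was 0.23 higher (adjusted p = 0.00535), and with TMM factors it was at -0.040 (adjusted p = 0.488). *chp1*, at -0.10 (95% interval -0.27 to 0.073, adjusted p = 0.232), was lower with TMM factors (-0.36, adjusted p = 0.00489) and turned to 0.11 with each library scaled to the same sum.

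In *pab2*Δ the change of a gene went with its WT level across the table. When the tested genes were divided into 4 equal bins by mean WT FPKM, the bins had median log2 fold changes of 0.43, 0.28, 0.18 and -0.074 from the lowest to the highest. The WT values enter both quantities, and the part of this in the relation was not tested. Between the mutants, where no WT value enters the fold change, the same bins had medians of 0.49, 0.37, 0.25 and -0.052. *clr4*, *rik1*, *chp1*, *clr1* and *mit1* fell in the lowest bin, *raf2* and *clr3* in the second, *chp2* in the third and *swi6* in the highest. The lowest bin ran from 0 to 12.995 FPKM, and its members here had WT means from 9.41 (*clr4*) to 12.98 FPKM (*rik1*). *rik1* thus lay at the border to the second bin, which had the lower median of 0.28. *raf2* exceeded the median of its bin by 0.33, *clr3* by 0.19, *rik1* by 0.17 and *mit1* by 0.032. *clr1*, although called higher, was 0.13 below the median of its bin. *clr4* and *chp1* stood 0.51 and 0.50 below it, the greatest distances among the 9. *swi6*, at -0.11 beside -0.074, was close to the other abundant genes. In *clr4-1* the medians of the bins lay between -0.097 and 0.0082.

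**Figure D3:**
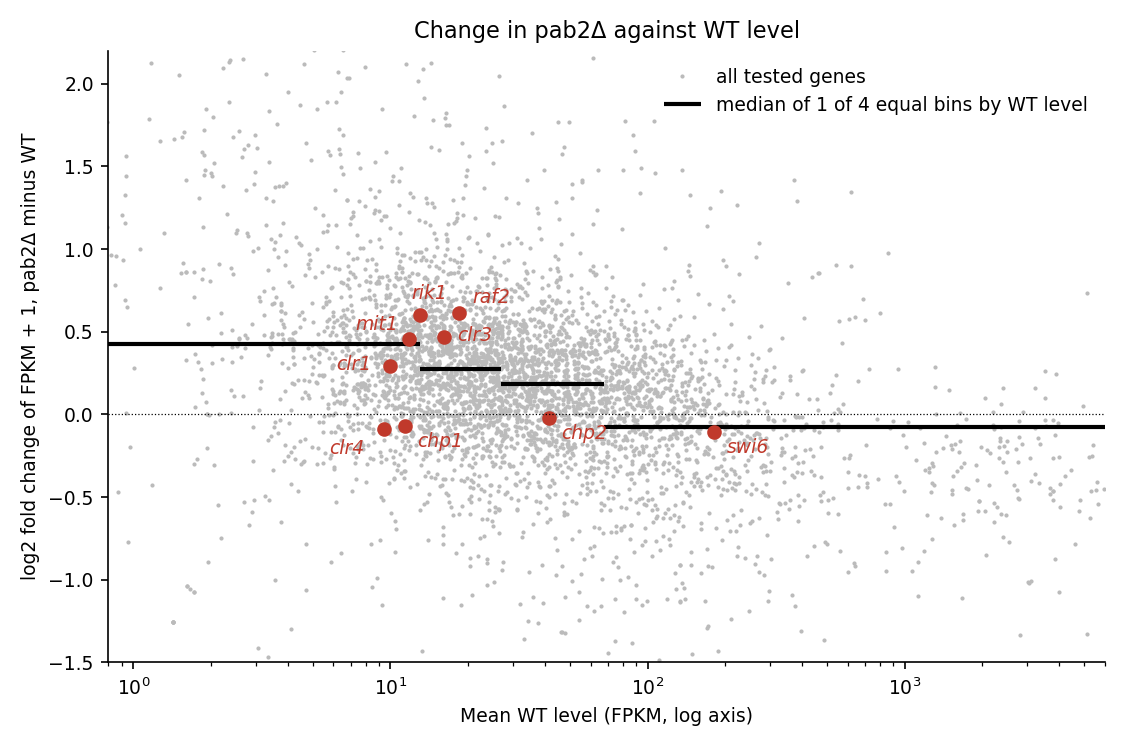
log2 fold change of FPKM + 1 in *pab2*Δ (vertical) against mean WT level in FPKM (horizontal, log axis): grey points are tested genes, of which 224 of 4899 lie outside the axes, black lines the medians of 4 equal bins by WT level, and red points the 9 genes. *clr4* and *chp1* lie well below the median line of the lowest bin at 0.43, whereas *raf2* lies above its line at 0.28.

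The surroundings of *clr4* were examined because the mutant allele was introduced with a marker. In the RefSeq table of assembly SJ5 the genes on either side are *meu6* and *rxt2* on the one and *ubc4* and *rpn3* on the other. The gene models of *clr4* and *meu6* overlap, and whether reads were counted by strand is not stated, so reads in the overlap may have been counted for either. *meu6*, a gene named for its upregulation in meiosis in *S. pombe*, was at 5.25 and 5.15 FPKM in WT, 49.1 and 47.3 FPKM in *pab2*Δ and 7.79 and 8.01 FPKM in *clr4-1*. It was above WT in both mutants, and most of all in *pab2*Δ. Its log2 fold change was 2.99 in *pab2*Δ (adjusted p = 4.68e-07) and 0.52 in *clr4-1* (adjusted p = 0.00085), and its part in the FPKM of *clr4* was not tested. *rxt2*, which encodes a subunit of a histone deacetylase complex in *S. pombe*, was at 40.0 and 36.5 FPKM in WT, 26.6 and 25.7 FPKM in *pab2*Δ and 26.6 and 23.9 FPKM in *clr4-1*. It was lower in both mutants, by -0.53 (adjusted p = 0.00085) and -0.58 (adjusted p = 0.00219). *ubc4*, which encodes a ubiquitin-conjugating enzyme, and *rpn3*, which encodes a proteasome subunit, were each slightly lower in *clr4-1*, at 0.912 and 0.900 times WT. A rise of over 2-fold in *clr4-1* was seen at *clr4* only among these 5 genes.

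Other gene models that overlap one of the 9 are *par1* with *rik1*, *erv29* and *SJAG_02118* with *raf2*, and *las1* with *chp2*. Of these *SJAG_02118* was raised in *pab2*Δ more than its partner, with 15.6 and 17.2 FPKM over 9.46 and 8.44 FPKM in WT, a ratio of means of 1.83 beside 1.56 for *raf2*. *par1*, at 1.25 times WT, rose less than *rik1*. How reads in the shared stretches were assigned is not stated, and their part in the levels of *rik1* and *raf2* was not tested.

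**Figure D4:**
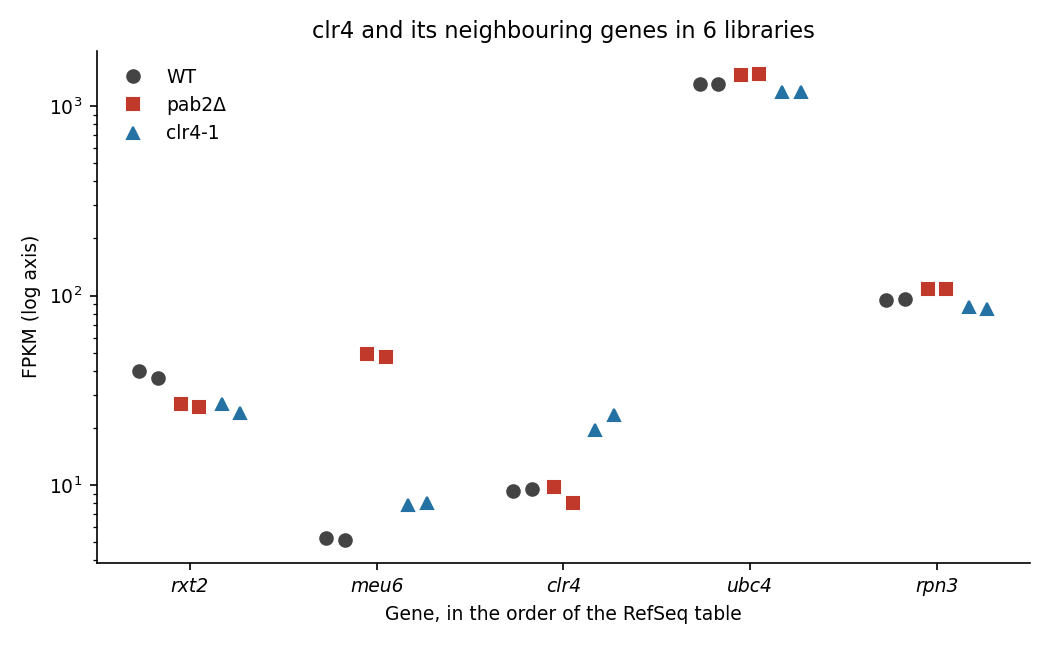
FPKM (log axis) of *clr4* and the nearest genes on each side in every library, in the order of the RefSeq table: circles are WT, squares *pab2*Δ and triangles *clr4-1*. *clr4* is raised in *clr4-1* only, *meu6* is raised most in *pab2*Δ, and *rxt2* is lower in both mutants.

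Other heterochromatin genes were taken from a list of 38 partners by *S. pombe* name, 34 of which were found. In *pab2*Δ 23 of the 34 were higher and 3 lower, with a median log2 fold change of 0.25, beside 53.8% of all tested genes higher, 19.9% lower and a median of 0.19. With TMM factors these counts were 13 and 7, beside 1608 and 1692 of all 4899 tested genes. In *clr4-1* 4 were higher and 11 lower, with a median of -0.092, beside 15.1% and 27.5% of all tested genes and a median of -0.064. With TMM factors 5 were higher and 4 lower, beside 1029 and 866 of all tested genes. Between the mutants 25 were higher in *pab2*Δ and 1 was lower, beside 61.1% and 17.4% of all tested genes. With TMM factors 15 were higher and 8 lower, beside 1685 and 1690 of all tested genes.

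The partner with the largest change in *pab2*Δ was *cdt2*, which encodes the substrate adaptor of a Cul4 ubiquitin ligase that targets the anti-silencing protein Epe1 in *S. pombe*. It was at 18.6 and 19.8 FPKM in WT, 49.8 and 48.2 FPKM in *pab2*Δ and 24.3 and 23.1 FPKM in *clr4-1*. Both mutants were above WT, and *pab2*Δ far more so, with log2 fold changes of 1.31 (adjusted p = 7.22e-06) and 0.29 (adjusted p = 0.00655). *lid2*, which encodes a protein with a JmjC domain that associates with CLRC in *S. pombe*, measured 13.9 and 14.0 FPKM in WT and rose in *pab2*Δ to 25.6 and 25.1 FPKM (0.82 on the log2 scale, adjusted p = 2.44e-05). *epe1* itself rose from 10.3 and 10.6 FPKM to 18.7 and 18.5 FPKM (0.78, adjusted p = 5.8e-05). Neither of these moved in *clr4-1* beyond the spread of replicates. *bdf2*, which encodes a bromodomain protein that works with Epe1 at heterochromatin boundaries in *S. pombe*, was the partner with the largest change in *clr4-1*, from 20.0 and 20.4 FPKM to 12.3 and 12.4 FPKM (-0.67, adjusted p = 0.000177). *slm9*, which encodes a subunit of the HIRA histone chaperone, followed at -0.34 (adjusted p = 0.0476). Between the mutants the largest differences were those of *cdt2* (1.02), *bdf2* (0.91) and *lid2* (0.86).

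A CLRC partner and both SHREC partners were also higher in *pab2*Δ, where the median log2 fold change of all tested genes was 0.19. The 3 partners called lower there were *bqt4* at -0.63, *ddb1* at -0.27 and *leo1* at -0.15 (adjusted p = 3.92e-05, 0.00927 and 0.00548). *ddb1*, from the same list of CLRC and cullin ligase partners as *stc1*, was also lower in *clr4-1* (-0.23, adjusted p = 0.0308). *stc1*, which links CLRC to RNA interference in *S. pombe*, was at a log2 fold change of 0.50 (adjusted p = 7.62e-05), beside 0.60 and 0.61 for *rik1* and *raf2*. The SHREC partners were *clr2* at 0.51 (adjusted p = 0.000722) and *ccq1* at 0.63 (adjusted p = 0.000111), beside 0.30 to 0.47 for its 3 other genes. The partner of Chp1, *tas3*, was at 0.18 (adjusted p = 0.065) and did not pass. In *clr4-1* *clr2* and *ccq1* did not pass the test, and *stc1* rose by 0.15 (adjusted p = 0.0191). The cullin gene, listed in the table as *cul4*, was not found under the name searched for, and its values were looked up afterwards. It was at 7.74 and 8.21 FPKM in WT, 10.8 and 10.2 FPKM in *pab2*Δ and 6.49 and 6.18 FPKM in *clr4-1*. It was thus higher in *pab2*Δ (0.36, adjusted p = 0.00364) and lower in *clr4-1* (-0.29, adjusted p = 0.0174).

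**Figure D5:**
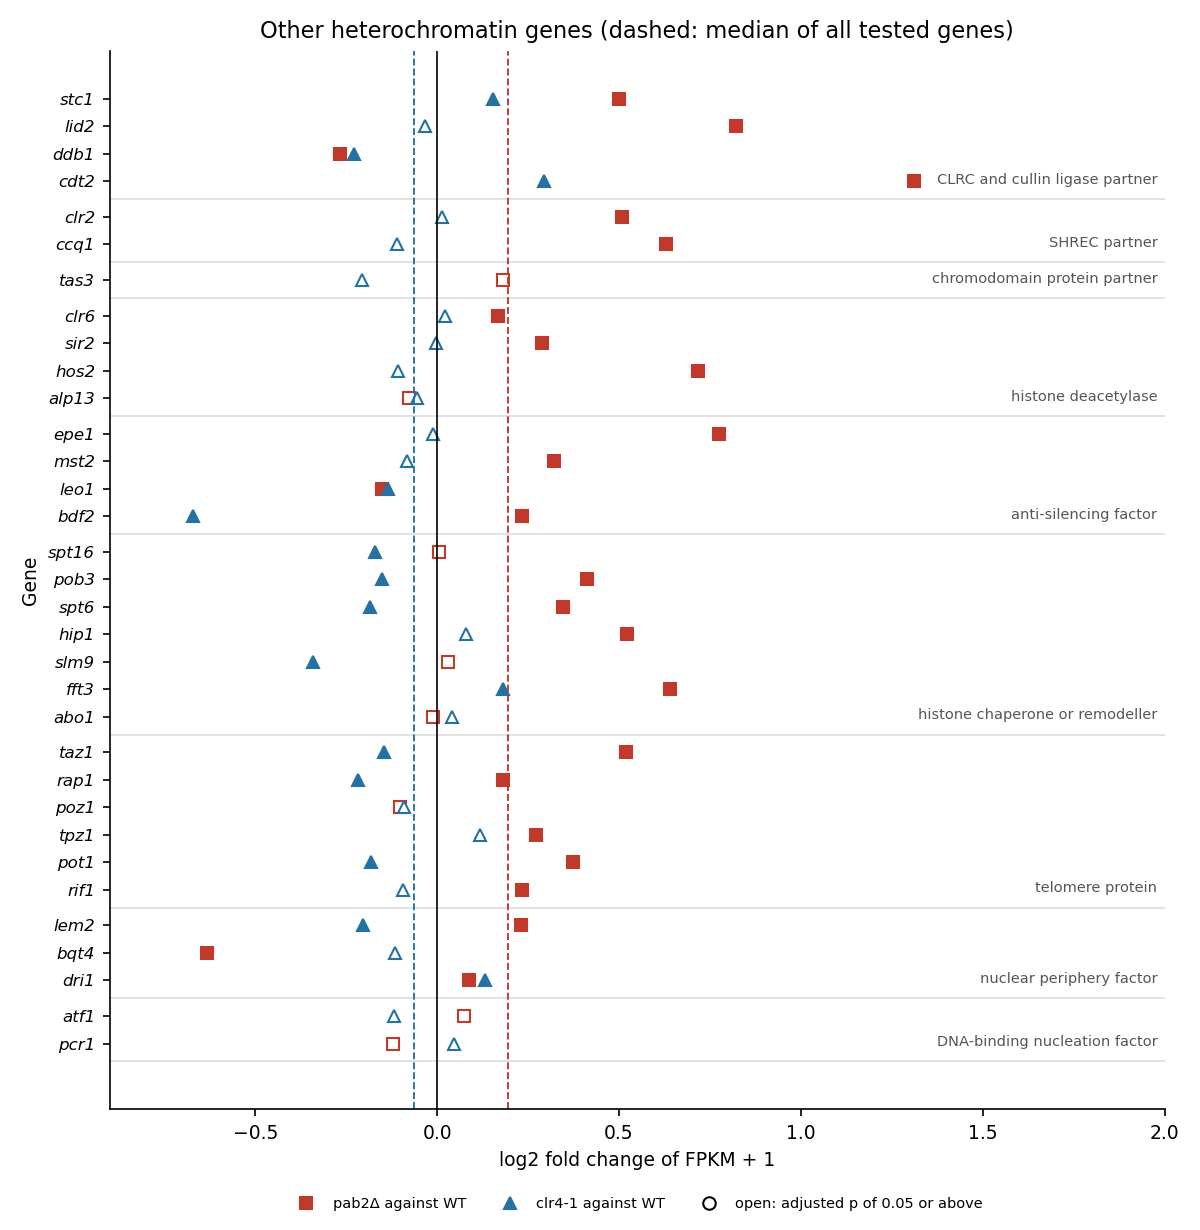
log2 fold change of FPKM + 1 against WT of 33 other heterochromatin genes, grouped by role: squares are *pab2*Δ, triangles *clr4-1*, open symbols did not pass the test, and dashed lines are the medians of all tested genes. Most squares lie to the right of 0, with *cdt2* farthest out at 1.31, and most triangles lie within a narrow range around 0 apart from *bdf2* at -0.67.

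The genes whose pattern over the 6 libraries was most like that of *clr4*, *swi6* and *mit1* were found by Pearson correlation of log2(FPKM + 1). With 3 strains of 2 libraries each such correlations are high for many genes and are given as a description. For *clr4* they were *SJAG_05354* (r = 0.992), the ribosomal protein gene *rps10a* (r = 0.991) and *SJAG_04448* (r = 0.987). *SJAG_04448* was at or below 0.183 FPKM in WT and *pab2*Δ and at 23.3 and 26.7 FPKM in *clr4-1*, whereas *rps10a* measured 1031 and 1038 FPKM in WT and 1227 and 1238 FPKM in *clr4-1*. For *swi6* they were *mei2*, *rsc4* and *crd1* (each r = 0.998), which share its order of WT, *pab2*Δ and *clr4-1* from high to low. *mei2*, a regulator of meiosis in *S. pombe*, covered a wider range, at 26.1 and 26.8 FPKM in WT, 17.7 and 17.1 FPKM in *pab2*Δ and 10.7 and 10.8 FPKM in *clr4-1*. For *mit1* they were *pmd1*, *fis1* and *tfa2* (each r = 0.998), high in *pab2*Δ and level in the other 2 strains.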

How the data were processed

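Total RNA from 3 strains, 2 libraries each, was sequenced. The authors deposited FPKM for 5272 genes. The unit was taken from the values, since the table does not name it. The 4 deposited ratio columns, in which the authors divided mutant by WT FPKM, were not used. The submitters' processing notes name FastQC 0.11.6, STAR 2.5.3a and StringTie 1.3.1c. The genome build and strand setting are not given in the sources used here. The *pab2*Δ columns carry no replicate number. The series text calls the 2 libraries of a strain biological replicates. The p-values rest on the spread between such replicates only, pooled over the 3 strains and drawn toward that of genes at a like level. FPKM holds no reads, so the depth and the counting error are unknown.

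The 4899 genes whose mean reached 1 FPKM were tested on log2(FPKM + 1) in R 4.3.3 with limma 3.58.1. The 6 libraries entered 1 model of strain, with an intensity trend and Benjamini-Hochberg adjustment at 0.05. The script was tested on simulated data. A fold change on this scale understates that of low genes. The fold rule used FPKM without a pseudocount. Neighbours and names came from RefSeq assembly SJ5, which matched 5213 genes by locus tag.

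Named were the 9 genes, the 3 most changed called partners in each comparison, the genes next to *clr4*, the 3 most similar patterns for *clr4*, *swi6* and *mit1*, and *pab2*. The other partners, overlapping genes, and *cul4* were named after their values were seen. The genes and lists were chosen with earlier results of these data known. *pcu4*, *pip1*, *asf1* and *cbp1* were not found by name. The values of 1 partner are not reported here, though it enters the counts. Alternatives were pseudocounts of 0.1 and 5, no filter, a stricter filter at 5 FPKM, TMM factors without weights (30% of ratios and 5% of levels trimmed), scaling to the same sum, 4 libraries, no trend, a replicate block, fold thresholds of 1.5 and 3, and leaving out each library. Figures used Python 3.11.15 and matplotlib 3.10.9.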

Additional observations from a re-analysis of the deposited data

How the results depend on the processing

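With 2 libraries a strain and no read numbers, small differences rest on the spread pooled over strains. Across 14 or 15 alternatives, 4 of the 9 genes kept direction and call in *pab2*Δ against WT (*rik1*, *raf2*, *clr3* and *mit1*), 3 in *clr4-1* against WT (*clr4*, *clr3*, which was never called, and *swi6*) and 5 between the mutants. The causes of the changes below were not tested. With TMM factors, 3 genes were lower in *pab2*Δ than in WT, 4 were higher and 3 lower in *pab2*Δ than in *clr4-1*, and the signs turned for *clr1* (0.024), *rik1* (0.011) and *mit1* (0.023) in *clr4-1* and for *chp2* (-0.040) and *swi6* (-0.15) between the mutants. Over all genes, TMM factors gave 1608 higher and 1692 lower in *pab2*Δ against WT, 1029 and 866 in *clr4-1* against WT, and 1685 and 1690 between the mutants, in place of 2634 and 977, 740 and 1345, and 2991 and 852, and the share of higher among all called genes went from 72.9% to 48.7%, from 35.5% to 54.3% and from 77.8% to 49.9%. With each library scaled to the same sum, 7 of the 9 genes were called higher in *pab2*Δ than in WT and 0 lower. Of all 4898 genes then tested, 3480 were higher and 565 lower. In *clr4-1* 1 of the 9 was higher than in WT, beside 619 of all genes. The signs turned for *chp1* (0.12), *clr4* (0.10), *chp2* (0.18) and *swi6* (0.098) in *pab2*Δ against WT and for *chp1* (0.11) between the mutants. Of all genes, 501 were lower in *pab2*Δ than in *clr4-1*. With 4 libraries, 1 of the 9 genes was higher in *clr4-1*, beside 700 of all 4856 genes then tested.

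Leaving out each library gave 1 to 1 genes higher and 1 to 2 lower in *clr4-1*, and did not alter the counts of the other comparisons. Values of uncalled genes then crossed 0: in *pab2*Δ *clr4* ran from -0.21 to 0.039 and *chp2* from -0.073 to 0.026, and in *clr4-1* *rik1* from -0.14 to 0.038, *mit1* from -0.098 to 0.021 and *chp1* from -0.024 to 0.083. Over all genes, those lower in *clr4-1* ran from 750 to 1146. A 1.5-fold rule called 2 genes higher in *pab2*Δ, and a 3-fold rule called 0 in *clr4-1*. The shares of all genes that pass both rules are not given, so these counts are a description only. The replicate block was fitted for WT and *clr4-1* only. The *pab2*Δ columns carry no number, and the numbered ratio columns of the authors were not used to assign one. With the block, 1 gene was higher in *clr4-1* (*raf2*, adjusted p = 0.105, was lost). The replicate differences of WT and *clr4-1* correlated at -0.094 across 4899 genes, so the shared numbers were not taken as pairs.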
